A study of Mus musculus with 21 samples.

Results

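The tripartite motif (TRIM) family is a group of proteins named for a shared amino-terminal part, made of a RING finger, B-box zinc fingers and a coiled coil. Members were taken from the count table as the rows whose mouse symbol is Trim followed by a digit, with any letter suffix, leaving out symbols that end in -ps. This gave 68 genes of 47069 identifiers in the table. Of these, 45 had a mean level of at least 1 CPM (counts scaled to library size) in 1 or more of 7 groups and were kept, and 42 of the 45 were tested, having also enough counts for the low-count filter. The rule used the level in any group, so a low gene could be kept through the group where it was highest.

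Macrophages were grown from bone marrow cells of C57BL/6 mice, wild type and aged 8-10 weeks, with the growth factor M-CSF in every group. The treatments were IL-4 plus IL-13 (a pair of interleukins) with tumour necrosis factor (TNF) for 6 h (IL_TNF_6h) or 24 h (IL_TNF_24h), TNF alone for 6 h (TNF_6h) or 24 h (TNF_24h), IL-4 and IL-13 alone for 6 h (IL_6h) or 24 h (IL_24h), or nothing at 0 h (Ctrl_0h). The cytokines were given at 10 ng/ml, and IL is short for the pair. Each group had 3 libraries, and the labels do not say whether these came from separate cultures or animals, so p-values measure the spread between these libraries, which may be technical. No untreated group was sampled at 6 h or 24 h, so the time in culture cannot be told apart from the treatment in any comparison with Ctrl_0h.

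Most TRIM proteins are ubiquitin ligases, in which the RING finger recruits the ubiquitin-charged enzyme and the coiled coil joins the chains into dimers. The carboxy-terminal part differs between members and usually sets what the protein binds, and the commonest is the PRY/SPRY domain. In macrophages several members are known for roles in antiviral defence, in signalling from nucleic acid sensors and in tuning NF-kB signals, and many are known as interferon-stimulated genes.

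Library totals ran between 28063252 and 48654300 counts. All 8 macrophage markers had at least 1 CPM in every group. Ctrl_0h replicate 2 had counts in 27761 identifiers, more than in any other library, and in IL_TNF_24h replicate 1 several TRIM genes stood apart from replicates 2 and 3. Pairs of libraries in a group were also compared by chi-square per degree of freedom over all genes. IL_6h replicate 2 (140.5 and 79.5) and IL_TNF_6h replicate 3 (98.7 and 81.0) lay as far from their group as Ctrl_0h replicate 2 (79.6 and 75.3). So did IL_TNF_24h replicate 1 (88.9 and 90.6), while TNF_6h replicate 3 did not (15.8 and 13.4). In TNF_24h the value was 98.3 for replicates 1 and 3, 26.9 for 1 and 2, and 37.3 for 2 and 3. Ifi202b had 30.3 to 64.2 CPM in the IL_TNF_6h and IL_6h libraries and 0 counts elsewhere, while Ddx3y, a Y-linked gene, had 41.8 to 50.9 CPM in the IL_TNF_24h and IL_24h libraries and 0 counts elsewhere. Xist, an X-linked gene, had 162 to 283 CPM in Ctrl_0h and the TNF libraries and 562 to 1014 CPM in IL_TNF_6h and IL_6h. In IL_TNF_24h and IL_24h it had at most 0.145 CPM. The libraries thus fell into 3 sets, and differences between these sets cannot be told apart from the cytokine in any comparison across them. By Ddx3y and Xist, the sex of the cells is among the differences between the IL_TNF_24h and IL_24h libraries and all others. TNF_6h and TNF_24h share a set with Ctrl_0h, and each IL_TNF group shares a set with its IL group, so the 4 comparisons of TNF with its matched group lie within a set.

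GAAA, any 2 bases and GAAA, read on either strand, is the core of the interferon-stimulated response element (ISRE), which binds interferon regulatory factors. Promoters of 300 bases (250 before to 50 after the start site) were found in RefSeq (GRCm38.p6) for 35 of the 45 members, and 9 of these (25.7%) held the motif, against 3.99% of 27025 genes in the whole table. Trim30d, Trim30a, Trim34a, Trim12a, Trim12c and Trim5 are neighbours in a run on chromosome 7, some of them near copies. The share of 25.7% is therefore not a count of independent genes. The stretches of 30 bases around it are shown because 8 of the 9 genes were raised by TNF at 6 h. They run 5′ to 3′ on the strand of the gene, and capitals mark the motif.
Trim30d (chr7:104507871-104507900, minus strand): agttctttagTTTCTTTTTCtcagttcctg
Trim30a (chr7:104465210-104465239, minus strand): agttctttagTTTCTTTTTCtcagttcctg
Trim34a (chr7:104244457-104244486, plus strand): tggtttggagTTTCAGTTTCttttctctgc
Trim12a (chr7:104315466-104315495, minus strand): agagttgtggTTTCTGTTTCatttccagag
Trim12c (chr7:104353359-104353388, minus strand): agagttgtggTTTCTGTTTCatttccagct
Trim5 (chr7:104288136-104288165, minus strand): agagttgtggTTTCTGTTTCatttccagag
Trim21 (chr7:102565450-102565479, minus strand): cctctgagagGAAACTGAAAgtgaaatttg
Trim26 (chr17:36836976-36837005, plus strand): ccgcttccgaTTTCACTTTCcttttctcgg
Trim2 (chr3:84212791-84212820, minus strand): tcagctttggTTTCCTTTTCtctaagacag

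Trim21 and Trim26 each held a second match that overlaps the first by 4 bases. The stretches of Trim30d and Trim30a were identical, as were those of Trim12a and Trim5. Trim30a has another start site in RefSeq, whose promoter also held the motif. Trim30c held no match in its promoter of 300 bases. Its aligned stretch is shown because Trim30c had the largest rise with TNF alone, and capitals mark the bases at the place of the motif.
Trim30c (chr7:104400896-104400925, minus strand): agttctgtggTTCCTTTTTCtcagttccac
Within the 10 marked bases, Trim30c differed from Trim30d by T3C, counted from 1 at the 5′ end. The whole promoters of this pair are given to show the wider context, again with the motif of Trim30d in capitals. Over 203 aligned bases they were 84.2% identical, and Trim30a was 93.6% identical to Trim30d over 295 aligned bases.
Trim30d (chr7:104507800-104508099, minus strand): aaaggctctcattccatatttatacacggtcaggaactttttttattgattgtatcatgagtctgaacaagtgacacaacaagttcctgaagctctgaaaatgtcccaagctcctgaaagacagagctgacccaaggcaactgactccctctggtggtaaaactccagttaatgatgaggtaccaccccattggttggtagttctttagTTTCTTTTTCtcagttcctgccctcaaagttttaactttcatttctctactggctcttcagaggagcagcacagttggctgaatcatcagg
Trim30c (chr7:104400729-104401028, minus strand): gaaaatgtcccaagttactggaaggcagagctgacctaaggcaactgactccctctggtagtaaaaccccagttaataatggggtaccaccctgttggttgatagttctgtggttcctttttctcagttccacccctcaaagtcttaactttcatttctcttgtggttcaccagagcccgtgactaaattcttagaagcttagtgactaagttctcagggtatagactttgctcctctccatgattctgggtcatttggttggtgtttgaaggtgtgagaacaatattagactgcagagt

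Of 18 members raised by TNF at 6 h that had a promoter entry, 8 held the ISRE core, as did 1 of 14 members that were tested and not raised, which is Trim2. Most of the 8 lie in the chromosome 7 run, so these are not counts of independent genes. The NF-kB motif (GGGA, any 4 bases, CC) was found in 8 of the 35 members with a promoter entry (22.9%, as in 22.9% of all genes). It was in 2 of the 18 raised members and in 6 of the 14 that were tested and not raised at 6 h. The STAT motif (TTC, any 3 bases, GAA) was found in 3 members (8.57%, against 9.55% of all genes), and the STAT6 motif (TTC, any 4 bases, GAA) in 3 (8.57%, against 8.01%). A match describes letters in the promoter and does not show binding.

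The 42 tested members fell into groups by the carboxy-terminal part, with 25 in the PRY/SPRY group. In untreated cells, levels per kilobase of exon ranged from 0.0743 CPM per kb for Trim34b to 111 CPM per kb for Trim47, a PRY/SPRY member. Trim28, the corepressor of KRAB zinc finger proteins also called KAP1, followed with 70.6 CPM per kb, then Trim8 with 47.0 and Trim25 with 23.3 CPM per kb. Exon lengths came from a GENCODE annotation of another genome build than that of the counts, so this order is approximate. Members just inside the level minimum were Trim6 with a highest group mean of 1.37 CPM, in TNF_24h, and Trim34b with 1.71 CPM, in IL_TNF_6h. In the other groups their means reached 0.858 and 0.788 CPM. Their results in the group that kept them are therefore not separate from the rule. Just outside were Trim17 with 0.917 CPM and Trim9 with 0.890 CPM.

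Trim67, Trim71 and Trim72 were kept through 1 library alone and were not tested. In Ctrl_0h replicate 2 they had 29.2, 18.2 and 6.49 CPM, while no other library had more than 0.894 CPM of any of them. Trim71 is known from stem cells and embryos, and Trim72 from membrane repair in muscle.

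TNF alone at 6 h raised 24 of the 42 tested members and lowered 7, while 18.8% of all 15581 genes tested were raised and 20.5% lowered (39.3% called in either direction, at an adjusted p below 0.05 by edgeR's quasi-likelihood test). The median log2 fold change was 0.50 over the members and -0.04 over all genes tested. At 24 h 18 members were raised and 10 lowered, against 20.9% and 24.4% of all genes (45.3% either way), with medians of 0.15 and -0.09. All 18 members raised at 24 h were also raised at 6 h, and 6 were lowered at both times, where both comparisons share the Ctrl_0h libraries. The PRY/SPRY group, with 25 of the 42 tested members, held 16 of the 24 raised members at 6 h and 13 of the 18 at 24 h. It also held 2 of the 7 lowered at 6 h and 4 of the 10 at 24 h. Scaled by library totals alone, 16 members were raised and 10 lowered at 6 h. The median of all genes was then -0.249, and the shares of all genes called under that scaling are not given here.

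**Figure D1:**
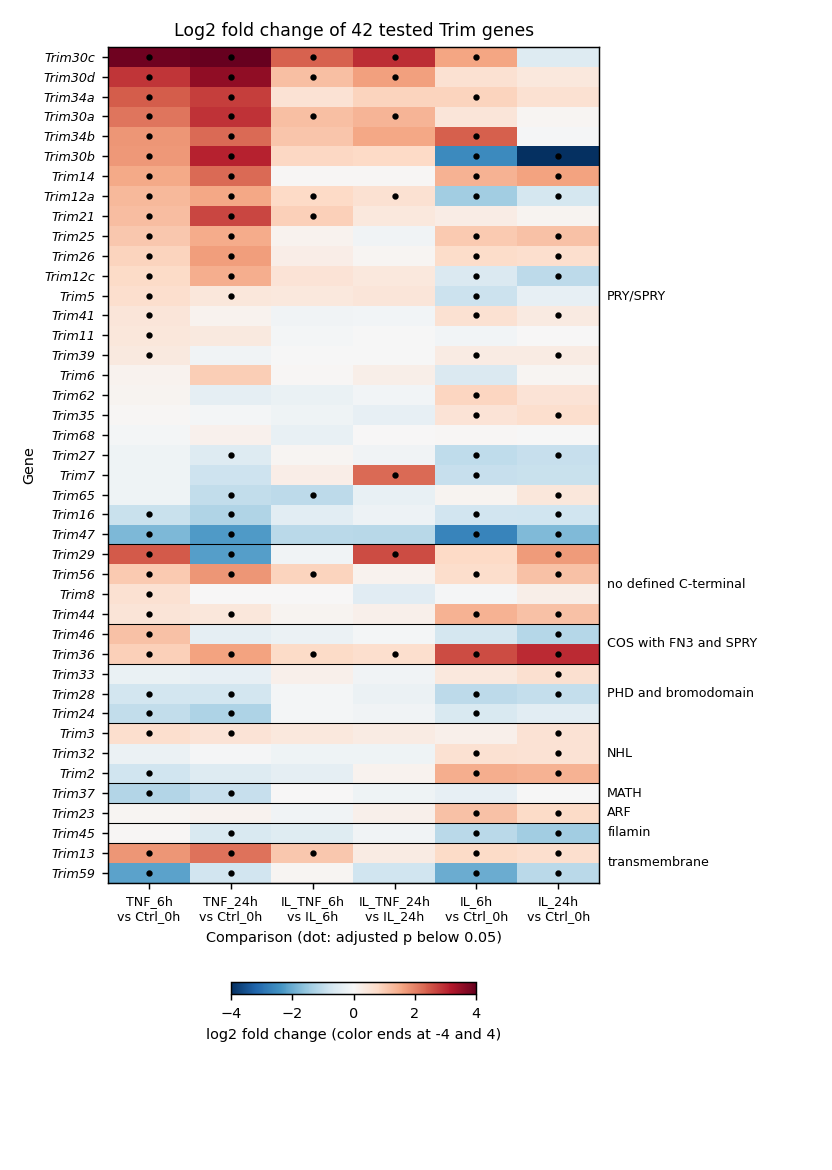
Heat map of log2 fold changes for the 42 tested Trim genes (rows, by carboxy-terminal part) in 6 comparisons (columns), with dots where the adjusted p was below 0.05. The columns of TNF alone hold 24 and 18 raised genes, and those of TNF with IL hold 8 and 7.

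Many of the raised members lay in a run of 10 PRY/SPRY genes on chromosome 7 (104218795 to 104507853, GRCm38.p6, 289 kb), which holds Trim6, Trim34a, Trim5, Trim12a, Trim34b, Trim12c, Trim30b, Trim30c, Trim30a and Trim30d in this order. TNF alone raised 9 of the 10 at each time, with median log2 fold changes of 1.74 at 6 h and 2.52 at 24 h. Trim6, a ligase linked to the kinase IKK epsilon, was not called at either time, with 0.13 ± 0.40 at 6 h (adjusted p = 0.82) and 0.98 ± 0.40 at 24 h (adjusted p = 0.0518). Its 24 h value was called with the replicate number as a block (1.01, adjusted p = 0.040), by DESeq2 (adjusted p = 0.034) and with a stricter filter of 1 CPM in 3 libraries (adjusted p = 0.048). It was also called without Ctrl_0h replicate 2 (1.26, adjusted p = 0.020) or TNF_24h replicate 1 (1.16, adjusted p = 0.043). Trim6 passed the level minimum through TNF_24h alone, so its 24 h rise is not separate from the rule that kept it. Trim30a to Trim30d, Trim12a with Trim12c, and Trim34a with Trim34b are near copies whose reads could be split between them in counting, so values of single copies are uncertain.

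Values by library are given below mainly for members picked for non-overlapping libraries in a comparison of TNF with its matched group. Remarks that libraries did not overlap are therefore partly fixed by this choice. Trim30a encodes a protein that limits NF-kB signalling from Toll-like receptors. Trim30a had 209, 242 and 213 CPM in TNF_6h and 321, 406 and 402 CPM in TNF_24h, against 57.3, 41.5 and 52.9 CPM in Ctrl_0h. All TNF libraries lay above all untreated ones, with log2 fold changes of 2.13 ± 0.26 at 6 h (adjusted p = 2.17e-06) and 2.90 ± 0.27 at 24 h (adjusted p = 4.21e-08). Trim30d had 69.7, 82.7 and 74.4 CPM in TNF_6h and 94.6, 129 and 136 CPM in TNF_24h, against 10.98, 6.73 and 13.2 CPM in Ctrl_0h. No library overlapped, and the log2 fold changes were 2.87 ± 0.38 and 3.54 ± 0.39 (adjusted p = 5.44e-06 and 4.21e-07). Trim30c had 7.04, 8.20 and 8.25 CPM in TNF_6h and 15.3, 25.2 and 27.0 CPM in TNF_24h, against 0.668, 0.203 and 0.685 CPM in Ctrl_0h. Untreated libraries all lay below 1 CPM and TNF libraries above 7 CPM, which gave 3.89 ± 0.67 and 5.41 ± 0.69 on the log2 scale (adjusted p = 0.00012 and 3.04e-06). Trim30b had 7.74, 8.35 and 7.91 CPM in TNF_6h and 18.9, 21.9 and 21.2 CPM in TNF_24h, against 2.59, 1.96 and 2.71 CPM in Ctrl_0h. Groups did not overlap, and the log2 fold changes were 1.72 ± 0.39 and 3.09 ± 0.40 (adjusted p = 0.00148 and 3.35e-06).

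Trim34a is the mouse counterpart of human TRIM34, which takes part in restriction of retroviruses. Trim34a had 26.8, 35.8 and 33.5 CPM in TNF_6h and 29.3, 42.6 and 52.4 CPM in TNF_24h, against 7.35, 2.81 and 7.90 CPM in Ctrl_0h. The highest untreated library lay below the lowest TNF library, with log2 fold changes of 2.41 ± 0.34 and 2.78 ± 0.35 (adjusted p = 1.32e-05 and 2.07e-06). Trim34b was low throughout. Trim34b had 0.536, 0.746 and 0.241 CPM in TNF_6h and 0.486, 0.840 and 0.861 CPM in TNF_24h, against 0.0267, 0.135 and 0.294 CPM in Ctrl_0h. At 6 h the groups overlapped and at 24 h they did not, with 1.76 ± 0.65 and 2.27 ± 0.64 (adjusted p = 0.0371 and 0.00754). The 6 h call of Trim34b ended without Ctrl_0h replicate 1 or 2 or TNF_6h replicate 1 or 2 (adjusted p from 0.082 to 0.167), and without Ctrl_0h replicate 3 its values were 2.68 at 6 h and 3.19 at 24 h.

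Trim5, Trim12a and Trim12c are the mouse relatives of human TRIM5, a restriction factor that recognises retroviral capsids. Trim12a had 68.1, 71.7 and 63.2 CPM in TNF_6h and 89.7, 81.1 and 70.7 CPM in TNF_24h, against 29.0, 26.5 and 27.2 CPM in Ctrl_0h. Every TNF library lay above every untreated one, and the log2 fold changes were 1.30 ± 0.14 and 1.55 ± 0.14 (adjusted p = 6.4e-07 and 4.58e-08). Trim12c had 66.2, 66.9 and 67.8 CPM in TNF_6h and 116, 117 and 90.9 CPM in TNF_24h, against 36.7, 44.7 and 36.2 CPM in Ctrl_0h. The rise was 0.77 ± 0.22 at 6 h and 1.46 ± 0.22 at 24 h (adjusted p = 0.00926 and 2.7e-05), with no overlap. Trim5 rose by 0.67 ± 0.18 and 0.46 ± 0.18 (adjusted p = 0.0058 and 0.044), and its 24 h call ended without Ctrl_0h replicate 1 or 3 or TNF_24h replicate 1 or 3 (adjusted p from 0.0981 to 0.111). The 24 h call of Trim5 also ended with the replicate number as a block (adjusted p = 0.053), with DESeq2 size factors (0.051), with library totals (0.209), with the stricter filter (0.073) and with the compared groups alone (0.057).

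**Figure D2:**
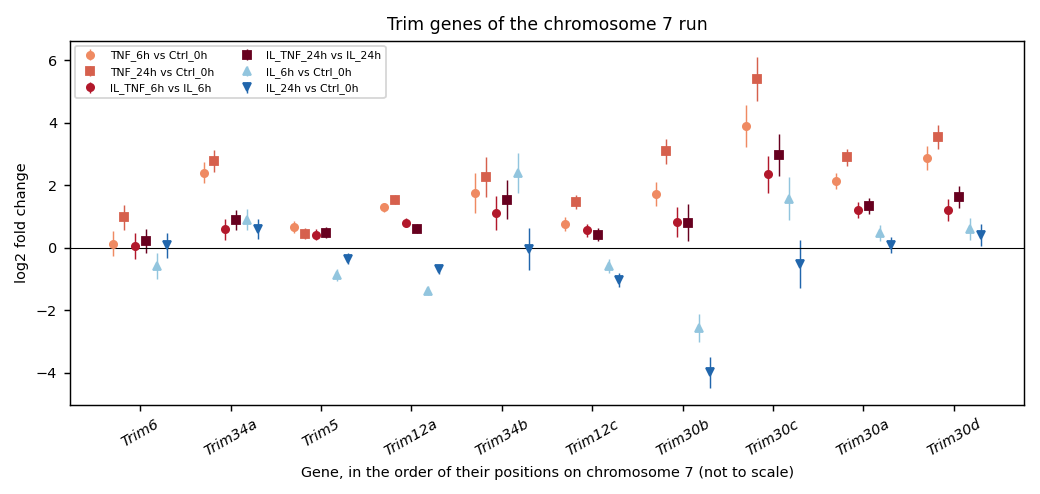
Log2 fold changes (points, with standard errors as bars) of the 10 Trim genes of the chromosome 7 run, in gene order, for 6 comparisons. Points of TNF alone are highest at Trim30c, with 3.89 at 6 h and 5.41 at 24 h, and Trim30b has the lowest points with IL alone, at -2.56 and -3.99.

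Other raised members lay outside this run. Trim21, a cytosolic antibody receptor and ubiquitin ligase, had a larger rise at 24 h than at 6 h. Trim21 had 50.7, 49.9 and 47.3 CPM in TNF_6h and 115, 142 and 145 CPM in TNF_24h, against 24.6, 17.1 and 21.3 CPM in Ctrl_0h. Untreated libraries all lay below the 6 h libraries, and these below the 24 h ones. The log2 fold changes were 1.23 ± 0.18 and 2.68 ± 0.19 (adjusted p = 1.76e-05 and 8.36e-10), and TNF_24h exceeded TNF_6h by 1.45 ± 0.18 (adjusted p = 7.14e-06).

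Trim25 encodes the ligase that adds ubiquitin chains in RIG-I signalling. Trim25 had 267, 288 and 285 CPM in TNF_6h and 333, 371 and 433 CPM in TNF_24h, against 141, 115 and 147 CPM in Ctrl_0h. TNF and untreated libraries did not overlap, with 1.06 ± 0.16 and 1.499 ± 0.16 on the log2 scale (adjusted p = 2.06e-05 and 2.55e-07). Trim14 encodes an adaptor at mitochondria in the same pathway. Trim14 had 51.9, 48.1 and 54.4 CPM in TNF_6h and 61.8, 84.3 and 117 CPM in TNF_24h, against 20.3, 8.08 and 25.9 CPM in Ctrl_0h. Ctrl_0h replicate 2 was the lowest library and no group overlapped, with 1.51 ± 0.28 and 2.28 ± 0.29 (adjusted p = 0.000256 and 2.35e-06). Trim26 encodes a ligase that acts on IRF3. Trim26 had 81.9, 81.7 and 97.2 CPM in TNF_6h and 127, 154 and 161 CPM in TNF_24h, against 51.0, 34.0 and 54.5 CPM in Ctrl_0h. The groups were again separate, with 0.90 ± 0.15 and 1.66 ± 0.16 (adjusted p = 0.000107 and 5.17e-08).

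Trim56 encodes a ligase linked to STING and double-stranded DNA sensing. Trim56 had 52.8, 62.6 and 55.0 CPM in TNF_6h and 81.5, 87.6 and 110.1 CPM in TNF_24h, against 28.6, 26.6 and 27.3 CPM in Ctrl_0h. Untreated libraries were close together and below all TNF libraries, with 1.05 ± 0.12 and 1.76 ± 0.13 on the log2 scale (adjusted p = 1.47e-06 and 1.24e-09). Trim13 encodes a ligase anchored in the endoplasmic reticulum. Trim13 had 8.58, 9.81 and 9.76 CPM in TNF_6h and 11.8, 14.4 and 11.5 CPM in TNF_24h, against 3.15, 2.60 and 2.48 CPM in Ctrl_0h. No TNF library overlapped the untreated ones, with 1.77 ± 0.17 and 2.19 ± 0.17 (adjusted p = 1.07e-07 and 4.11e-09). Trim13 overlaps Dleu2 and Kcnrg in the genome, and since the strand used in counting is not given, reads of these genes cannot be told apart. The same limit holds for Trim46 with Krtcap2, Trim37 with Ppm1e and Trim32 with Astn2. Several other members overlap genes with Gm, LOC or Rik symbols or transfer RNA genes.

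**Figure D3:**
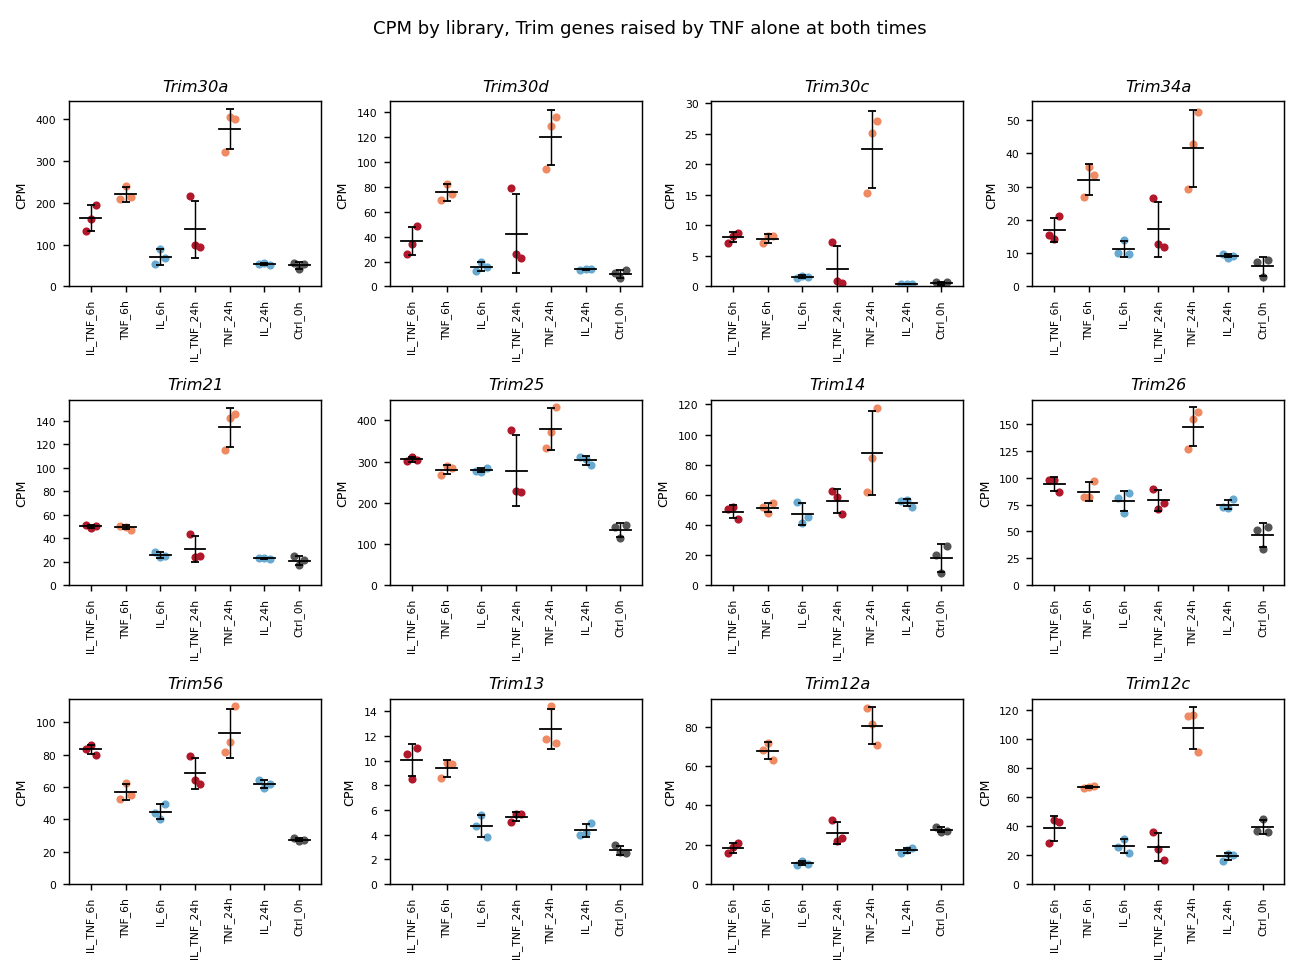
CPM in each library (points) with the mean (line) and SD (bars, n = 3) of 7 groups, for 12 Trim genes raised by TNF alone at both times. The TNF_24h libraries of Trim21 lie between 115 and 145 CPM and those of IL_TNF_24h between 24.0 and 43.7 CPM, against 17.1 to 24.6 CPM in Ctrl_0h.

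Among raised members of other kinds, Trim36, which binds microtubules, was raised at both times. Trim36 had 8.28, 6.95 and 7.67 CPM in TNF_6h and 10.2, 11.9 and 13.7 CPM in TNF_24h, against 4.65, 3.99 and 3.10 CPM in Ctrl_0h. The groups did not overlap, with 0.96 ± 0.19 and 1.604 ± 0.19 on the log2 scale (adjusted p = 0.000459 and 1.01e-06). Trim44, which lacks a RING finger, rose by 0.52 ± 0.12 and 0.44 ± 0.12, and Trim3, an NHL-repeat member, by 0.68 ± 0.17 and 0.53 ± 0.17. The 24 h call ended for Trim44 without TNF_24h replicate 3 (0.29, adjusted p = 0.0645) and for Trim3 without Ctrl_0h replicate 2 (0.40, adjusted p = 0.0775).

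Trim8, Trim11, Trim29, Trim39, Trim41 and Trim46 were called raised at 6 h and not at 24 h. TNF_24h was itself called lower than TNF_6h for Trim8, Trim29, Trim39 and Trim46, and not for Trim11 or Trim41. Trim11 had 0.39 ± 0.16 at 24 h (adjusted p = 0.0607), which DESeq2 called (adjusted p = 0.042), as did the test without Ctrl_0h replicate 3 (0.51, adjusted p = 0.033). Trim46 is known as a microtubule organiser of axons. Trim46 had 5.26, 5.76 and 4.57 CPM in TNF_6h and 1.73, 1.75 and 1.95 CPM in TNF_24h, against 1.39, 3.72 and 1.89 CPM in Ctrl_0h. The 6 h libraries lay above all others, with 1.16 ± 0.31 against Ctrl_0h (adjusted p = 0.00647) and TNF_24h was lower than TNF_6h, with -1.52 ± 0.32 on the log2 scale (adjusted p = 0.00147). Trim8, a ligase linked to TAK1 in the TNF pathway, rose by 0.62 ± 0.20, Trim41 by 0.48 ± 0.14, Trim11 by 0.45 ± 0.16 and Trim39 by 0.40 ± 0.12. These 4 calls each ended with a single library left out. Trim8 was not called without Ctrl_0h replicate 2 or TNF_6h replicate 1 or 2 (adjusted p from 0.053 to 0.102), and Trim11 without Ctrl_0h replicate 2 or any TNF_6h library (adjusted p from 0.0534 to 0.199). Trim39 was not called without Ctrl_0h replicate 2 or TNF_6h replicate 3 (adjusted p from 0.0503 to 0.0733), nor Trim41 without Ctrl_0h replicate 2 (adjusted p = 0.0697).

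The PHD and bromodomain group, which holds nuclear transcription cofactors, had no raised member at either time and 2 of 3 lowered at both. Trim28 had 190.1, 166 and 163 CPM in TNF_6h and 184, 169 and 162 CPM in TNF_24h, against 274, 258 and 325 CPM in Ctrl_0h. All TNF libraries of Trim28 lay below the untreated ones, with -0.72 ± 0.13 and -0.74 ± 0.13 on the log2 scale (adjusted p = 0.000154 and 0.000108). Trim24 encodes a cofactor of nuclear receptors. Trim24 had 7.37, 8.89 and 9.39 CPM in TNF_6h and 7.60, 6.83 and 7.25 CPM in TNF_24h, against 14.96, 23.4 and 12.6 CPM in Ctrl_0h. Ctrl_0h replicate 2 was the highest library and the groups did not overlap, with -0.99 ± 0.21 and -1.23 ± 0.21 (adjusted p = 0.000793 and 8.29e-05). Trim33, a cofactor in Smad signalling, was not called, with -0.27 ± 0.23 and -0.34 ± 0.24.

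The other 4 members lowered at both times were Trim47, Trim59, Trim37 and Trim16. Trim47 had 103, 87.3 and 72.6 CPM in TNF_6h and 76.1, 55.9 and 56.2 CPM in TNF_24h, against 299, 264 and 349 CPM in Ctrl_0h. All untreated libraries lay far above the TNF ones, with -1.79 ± 0.38 and -2.28 ± 0.39 on the log2 scale (adjusted p = 0.000901 and 8.66e-05). Trim59 had 4.52, 5.01 and 5.19 CPM in TNF_6h and 12.6, 11.8 and 13.1 CPM in TNF_24h, against 20.6, 20.7 and 23.1 CPM in Ctrl_0h. Trim59, a membrane-anchored member, was lowest at 6 h, with -2.13 ± 0.30 and -0.78 ± 0.28 (adjusted p = 1.15e-05 and 0.0315). The 24 h call of Trim59 ended without any one of its libraries (adjusted p from 0.0501 to 0.0936).

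Trim37 had 12.8, 10.1 and 11.7 CPM in TNF_6h and 12.5, 11.7 and 16.6 CPM in TNF_24h, against 28.3, 19.8 and 29.2 CPM in Ctrl_0h. Trim37, a ligase of peroxisomes and centrosomes with a MATH domain, showed no overlap, with -1.16 ± 0.18 and -0.92 ± 0.18 (adjusted p = 3.9e-05 and 0.000344). Trim16 is linked to autophagy of damaged lysosomes. Trim16 had 8.41, 7.52 and 7.67 CPM in TNF_6h and 5.90, 4.902 and 8.14 CPM in TNF_24h, against 14.7, 12.4 and 16.5 CPM in Ctrl_0h. Groups did not overlap, with -0.89 ± 0.19 and -1.20 ± 0.20 (adjusted p = 0.00114 and 5.14e-05). Trim65, a ligase of the RNA sensor MDA5, was called at 24 h, when it fell by 0.996 ± 0.13 (adjusted p = 2.45e-06), against -0.17 ± 0.12 at 6 h, and TNF_24h lay below TNF_6h (-0.83 ± 0.13, adjusted p = 7.05e-05).

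Trim2, a neuronal ligase with NHL repeats, fell by 0.80 ± 0.28 on the log2 scale at 6 h (adjusted p = 0.0274), a call that ended without Ctrl_0h replicate 2 or 3 or TNF_6h replicate 2 or 3 (adjusted p from 0.0504 to 0.109). At 24 h Trim27, a ligase linked to endosomal transport, fell by 0.52 ± 0.12 (adjusted p = 0.00216). Trim45, with a filamin domain, fell by 0.60 ± 0.21 (adjusted p = 0.0289), and its call ended without Ctrl_0h replicate 1 or TNF_24h replicate 1 or 3 (adjusted p from 0.07 to 0.134). In the direct comparison of TNF_24h with TNF_6h, 10 members were raised and 7 lowered, against 12.7% and 10.9% of all genes (23.6% either way).

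With IL present, fewer members passed the test for TNF. IL_TNF_6h against IL_6h had 8 members raised and 1 lowered, where 7.09% of all genes were raised and 6.98% lowered (14.1% either way), with a median log2 fold change of 0.06 over members and -0.01 over all genes. IL_TNF_24h against IL_24h had 7 raised and 0 lowered, against 6.03% and 5.08% of all genes (11.1% either way), with medians of 0.05 and 0.00. At an unadjusted p below 0.05, 16 members passed at 24 h in either direction, and DESeq2 made 9 calls. The shares of all genes by these criteria are not given here, so neither count can be set against the 11.1%. All 8 members raised at 6 h were among the 24 raised by TNF alone (33.3% of these), and 5 of the 7 at 24 h were among the 18 (27.8% of these). These pairs of comparisons share no library, but they share 1 fit over all 21 libraries. The same overlap was not counted over all genes, so it is not a result particular to the members. Scaled by library totals alone, Trim47 was also lowered at both times, and so it was by DESeq2.

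Trim30c, Trim30d, Trim30a, Trim12a and Trim36 were raised by TNF in the presence of IL at both times. Trim30a had 132, 162 and 196 CPM in IL_TNF_6h, against 53.3, 90.1 and 68.1 CPM in IL_6h. At 6 h the groups did not overlap, with 1.21 ± 0.25 on the log2 scale (adjusted p = 0.00203). Trim30a had 216, 99.4 and 94.1 CPM in IL_TNF_24h, against 53.7, 56.9 and 50.5 CPM in IL_24h. Replicate 1 of IL_TNF_24h stood far above replicates 2 and 3, which still exceeded every IL_24h library, with 1.35 ± 0.25 (adjusted p = 0.00106). Trim30d had 26.0, 34.4 and 48.2 CPM in IL_TNF_6h, against 12.2, 19.4 and 15.4 CPM in IL_6h. The 6 h difference was 1.21 ± 0.36 (adjusted p = 0.0267) with no overlap, and its call ended without IL_6h replicate 1 or 3 or IL_TNF_6h replicate 2 or 3 (adjusted p from 0.0635 to 0.135). Trim30d had 78.9, 25.7 and 22.7 CPM in IL_TNF_24h, against 13.2, 13.8 and 14.1 CPM in IL_24h. Here too replicate 1 stood apart, and the difference of 1.63 ± 0.36 (adjusted p = 0.00423) was 0.82 without it, still called.

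Trim30c had 7.14, 8.30 and 8.82 CPM in IL_TNF_6h, against 1.35, 1.78 and 1.61 CPM in IL_6h. IL_TNF_6h libraries lay well above IL_6h ones, with 2.36 ± 0.59 (adjusted p = 0.00865). Trim30c had 7.26, 0.935 and 0.532 CPM in IL_TNF_24h, against 0.370, 0.398 and 0.330 CPM in IL_24h. The 24 h difference of 2.96 ± 0.67 (adjusted p = 0.00504) rested on replicate 1, since without it the value was 1.01 (adjusted p = 0.12). Trim12a had 15.7, 18.9 and 20.8 CPM in IL_TNF_6h, against 9.81, 11.8 and 10.2 CPM in IL_6h. Groups were separate, with 0.80 ± 0.14 (adjusted p = 0.000536). Trim12a had 32.5, 22.0 and 23.4 CPM in IL_TNF_24h, against 15.7, 17.1 and 18.4 CPM in IL_24h. At 24 h the difference was 0.60 ± 0.14 (adjusted p = 0.00696) with no overlap, and its call ended without IL_24h replicate 1 or IL_TNF_24h replicate 1 (adjusted p from 0.0517 to 0.0668).

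Trim36 was raised from an IL level that already exceeded the untreated one. Trim36 had 40.0, 35.2 and 47.3 CPM in IL_TNF_6h, against 20.3, 30.2 and 21.9 CPM in IL_6h. Trim36 had 41.1, 54.1 and 53.7 CPM in IL_TNF_24h, against 34.8, 31.4 and 27.7 CPM in IL_24h. No library overlapped at either time, with 0.76 ± 0.17 at 6 h and 0.67 ± 0.17 at 24 h (adjusted p = 0.00437 and 0.0138), and the 24 h call ended without IL_24h replicate 2 or 3 or IL_TNF_24h replicate 2 or 3 (adjusted p from 0.0527 to 0.0873). At 6 h Trim13, Trim21 and Trim56 were raised as well, by 1.09 ± 0.16, 0.96 ± 0.18 and 0.90 ± 0.12 (adjusted p = 6.93e-05, 0.000661 and 2.69e-05). At 24 h the same 3 genes were not called, with 0.33 ± 0.16, 0.44 ± 0.18 and 0.14 ± 0.12 (adjusted p = 0.262, 0.139 and 0.629).

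Trim65 was the member called lower with TNF in the presence of IL, at 6 h. Trim65 had 9.22, 8.54 and 8.70 CPM in IL_TNF_6h, against 19.5, 19.1 and 16.0 CPM in IL_6h. The groups did not overlap, and the difference was -1.05 ± 0.12 (adjusted p = 4.84e-06). Trim65 had 17.1, 20.8 and 18.4 CPM in IL_TNF_24h, against 23.9, 24.2 and 20.8 CPM in IL_24h. At 24 h the groups overlapped slightly and the difference of -0.29 ± 0.12 was not called (adjusted p = 0.151).

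Trim29 and Trim7 were raised by the combination at 24 h. Trim29 encodes a protein without a RING finger that limits innate responses in alveolar macrophages. Trim29 had 2.31, 5.89 and 4.59 CPM in IL_TNF_24h, against 0.837, 0.469 and 0.776 CPM in IL_24h. IL_TNF_24h libraries all lay above IL_24h ones, with 2.61 ± 0.51 (adjusted p = 0.00146). With TNF alone Trim29 was raised at 6 h and lowered at 24 h. Trim29 had 1.44, 0.955 and 1.10 CPM in TNF_6h and 0.0608, 0 and 0.0662 CPM in TNF_24h, against 0.107, 0.304 and 0.228 CPM in Ctrl_0h. The TNF_24h libraries held 2, 0 and 2 counts and the Ctrl_0h ones 4, 9 and 7, so the fitted -2.19 ± 0.76 at 24 h (adjusted p = 0.0242) depends on few reads, and its call ended without Ctrl_0h replicate 2 or 3 or TNF_24h replicate 2 (adjusted p from 0.0501 to 0.127). At 6 h the difference was 2.45 ± 0.56 (adjusted p = 0.00176).

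Trim7 encodes a ligase that binds glycogenin. Trim7 had 2.96, 6.50 and 5.30 CPM in IL_TNF_24h, against 0.954, 1.05 and 1.09 CPM in IL_24h. The combination exceeded IL alone in every library, with 2.25 ± 0.39 (adjusted p = 0.000418). Trim7 had 1.51, 1.94 and 1.62 CPM in TNF_6h and 0.973, 0.665 and 1.59 CPM in TNF_24h, against 1.66, 2.77 and 1.27 CPM in Ctrl_0h. TNF alone left Trim7 uncalled, with -0.17 ± 0.38 at 6 h and -0.82 ± 0.39 at 24 h. Beside these rises, the summed level of 5 dendritic cell markers was 23.5 to 28.4 CPM in IL_TNF_24h and 2.36 to 3.803 CPM in IL_24h, with 2 of the 5 at 1 CPM or more in IL_TNF_24h and 1 in IL_24h, and Ccr7 had 9.28 to 18.4 CPM in IL_TNF_24h and 0.487 to 0.640 CPM in IL_24h. Their part in the results of IL_TNF_24h was not tested. In bulk RNA, more cells with a transcript and more of it per cell cannot be told apart.

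**Figure D4:**
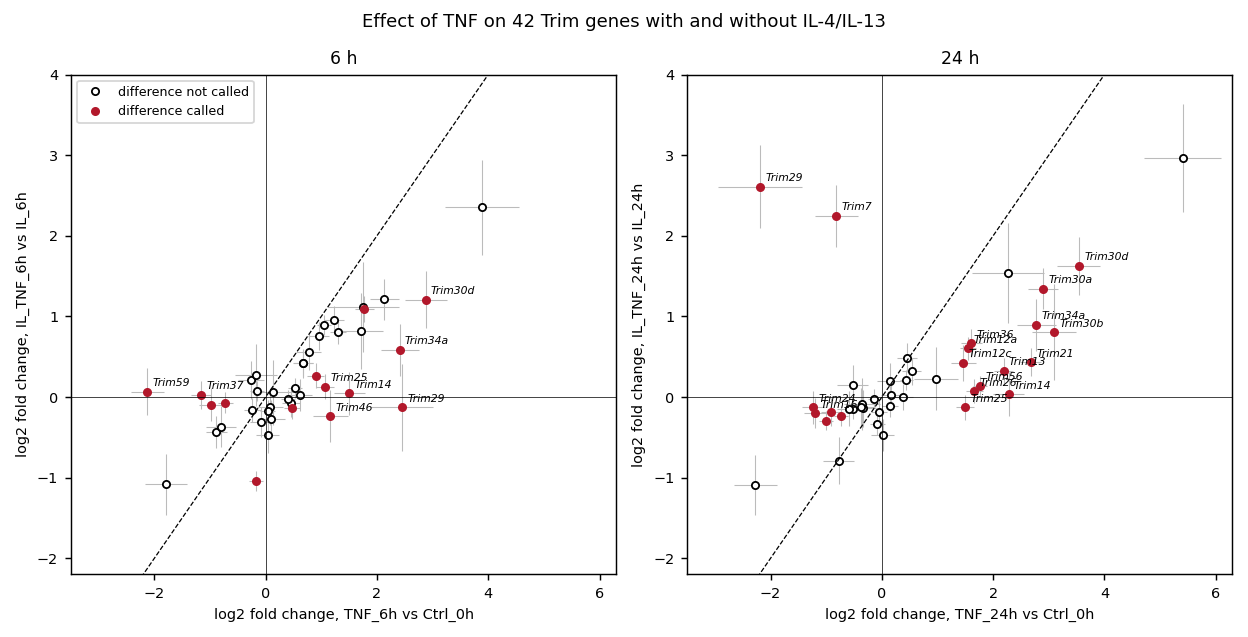
Effect of TNF with IL (vertical, log2 fold change of the combination against IL) against its effect without IL (horizontal, TNF against Ctrl_0h) for 42 Trim genes at 6 h and 24 h, with standard errors as bars and a dashed line of equal effects. Filled points mark genes whose effects differed by the test of the difference, and names are given for those with the larger differences. At 24 h, 13 filled points lie below the line and 7 above it.

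The difference of the 2 effects was itself tested as an interaction, which is how far TNF moved a gene in IL-treated cells, less how far it moved the gene in cells without IL. At 6 h it was called for 14 members, 10 below 0 and 4 above, against 9.13% and 9.27% of all genes (18.4% either way), with a median of -0.32 over members and 0.00 over all genes. At 24 h it was called for 20 members, 13 below 0 and 7 above, against 12.5% and 11.6% of all genes (24.1% either way), with medians of -0.22 and 0.08. Scaled by library totals alone, 6 members were below 0 and 4 above at 6 h, where the median of all genes was 0.104. The control of TNF alone was sampled at 0 h, so the time in culture enters this difference. Differences between library sets enter it as well, since the effects with and without IL come from different sets. At 24 h the sex of the cells is among these.

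Of the 18 members raised by TNF alone at 24 h, 13 had an interaction below 0 and none above, and of the 10 lowered, 6 had one above 0 and none below. These counts share the TNF_24h and Ctrl_0h libraries with the interaction and so do not stand as a separate result. At 24 h the interactions below 0 were -2.28 ± 0.73 for Trim30b, -2.24 ± 0.39 for Trim14, -2.24 ± 0.25 for Trim21, -1.91 ± 0.51 for Trim30d, -1.88 ± 0.46 for Trim34a and -1.86 ± 0.23 for Trim13. They were -1.62 ± 0.22 for Trim25, -1.62 ± 0.17 for Trim56, -1.59 ± 0.22 for Trim26, -1.55 ± 0.36 for Trim30a, -1.03 ± 0.31 for Trim12c, -0.94 ± 0.20 for Trim12a and -0.94 ± 0.25 for Trim36. Adjusted p-values ranged from 1.91e-06 for Trim56 to 0.03 for Trim30b. Trim30c had a fitted -2.44 ± 0.95 that was not called (adjusted p = 0.0701). Without IL_TNF_24h replicate 1 it was -4.47 and called (adjusted p = 2.06e-06), and DESeq2 called it as well (adjusted p = 0.042).

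Trim21 had 43.7, 24.0 and 25.0 CPM in IL_TNF_24h, against 23.5, 22.8 and 22.2 CPM in IL_24h. For Trim21 these groups lay far below the TNF_24h libraries, which had 115, 142 and 145 CPM. Trim25 had 377, 229 and 227 CPM in IL_TNF_24h, against 311, 306 and 291 CPM in IL_24h. Replicate 1 of IL_TNF_24h was above the IL_24h libraries and replicates 2 and 3 below them, and the difference was not called, with -0.13 ± 0.15 (adjusted p = 0.784). Without replicate 1 it was called lower, with -0.41 (adjusted p = 0.0323). Trim14 had 62.6, 58.4 and 47.2 CPM in IL_TNF_24h, against 55.6, 56.3 and 52.2 CPM in IL_24h. The groups of Trim14 overlapped as well, with 0.03 ± 0.27 (adjusted p = 0.982).

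Trim26 had 89.5, 70.6 and 76.2 CPM in IL_TNF_24h, against 72.9, 71.9 and 79.8 CPM in IL_24h. For Trim26 the 2 groups overlapped, with 0.07 ± 0.15 (adjusted p = 0.896). Trim34a had 26.7, 12.8 and 11.9 CPM in IL_TNF_24h, against 9.64, 8.67 and 9.24 CPM in IL_24h. The fitted difference of Trim34a was 0.90 ± 0.32 (adjusted p = 0.0889), and replicate 1 of IL_TNF_24h was again the highest. Trim30b had 0.535, 0.164 and 0.121 CPM in IL_TNF_24h, against 0.0195, 0.0703 and 0.349 CPM in IL_24h. Trim30b was near 0 in all of these libraries, which held 19, 7 and 5 counts in IL_TNF_24h and 1, 3 and 18 in IL_24h. Its interaction was -0.56 (adjusted p = 0.74) without IL_24h replicate 3 and -3.23 without IL_TNF_24h replicate 1, and its call also ended without TNF_24h replicate 2 or 3 and IL_TNF_24h replicate 2 or 3. Trim30d had -2.78 without IL_TNF_24h replicate 1. Trim12c lost its call without TNF_24h replicate 2, IL_24h replicate 3 or IL_TNF_24h replicate 2 or 3 (adjusted p from 0.0501 to 0.0558).

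Interactions above 0 at 24 h were 4.80 ± 0.90 for Trim29, 3.07 ± 0.54 for Trim7, 1.11 ± 0.29 for Trim24, 1.01 ± 0.27 for Trim16, 0.74 ± 0.25 for Trim37, 0.70 ± 0.17 for Trim65 and 0.50 ± 0.18 for Trim28 (adjusted p from 0.000393 for Trim7 to just under 0.05 for Trim28). For Trim24, Trim16, Trim37, Trim65 and Trim28, TNF alone had lowered the level and TNF with IL gave no call. The call ended for Trim28 without Ctrl_0h replicate 1 or 3, TNF_24h replicate 2 or 3, any IL_24h library or any IL_TNF_24h library (adjusted p from 0.0665 to 0.152), and for Trim37 without Ctrl_0h replicate 1 or 3, TNF_24h replicate 1 or 2, any IL_24h library or IL_TNF_24h replicate 2 or 3 (adjusted p from 0.0753 to 0.115). For Trim16 it ended without IL_24h replicate 2 (adjusted p = 0.0519).

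At 6 h the interactions below 0 were -2.58 ± 0.78 for Trim29, -1.82 ± 0.46 for Trim34a, -1.67 ± 0.50 for Trim30d, -1.46 ± 0.39 for Trim14 and -1.40 ± 0.45 for Trim46. Smaller ones were -0.93 ± 0.22 for Trim25, -0.88 ± 0.17 for Trim65, -0.68 ± 0.23 for Trim13, -0.64 ± 0.22 for Trim26 and -0.61 ± 0.20 for Trim41. Those above 0 were 2.20 ± 0.41 for Trim59, 1.19 ± 0.25 for Trim37, 0.90 ± 0.29 for Trim24 and 0.65 ± 0.18 for Trim28. Adjusted p-values ran from 0.000913 for Trim59 to 0.0486 for Trim13. Of the 14 calls, those of Trim14, Trim25, Trim34a, Trim37, Trim59 and Trim65, 6 in all, held with any single library left out.

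The other 8 calls at 6 h ended with a library left out. Trim46 lost it without Ctrl_0h replicate 1 or 3, TNF_6h replicate 1 or 2, IL_6h replicate 1 or 3 or IL_TNF_6h replicate 3 (adjusted p up to 0.0901). Trim24 lost it without Ctrl_0h replicate 2, TNF_6h replicate 1 or 2, any IL_6h library or any IL_TNF_6h library (up to 0.123). Trim28 lost it without Ctrl_0h replicate 3, IL_6h replicate 2 or IL_TNF_6h replicate 1 (up to 0.0721), and Trim30d without Ctrl_0h replicate 2, TNF_6h replicate 2, IL_6h replicate 2 or 3 or IL_TNF_6h replicate 1 or 2 (up to 0.0758). Trim13 lost it without Ctrl_0h replicate 2 or 3, any TNF_6h library, IL_6h replicate 1 or 2 or IL_TNF_6h replicate 1 or 2 (up to 0.12), and Trim29 without Ctrl_0h replicate 1, TNF_6h replicate 1, IL_6h replicate 1 or 3 or IL_TNF_6h replicate 2 (up to 0.0769). Trim41 and Trim26 lost it without Ctrl_0h replicate 2, any TNF_6h library, IL_6h replicate 1 or 3 or any IL_TNF_6h library (up to 0.113 and 0.126).

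**Figure D5:**
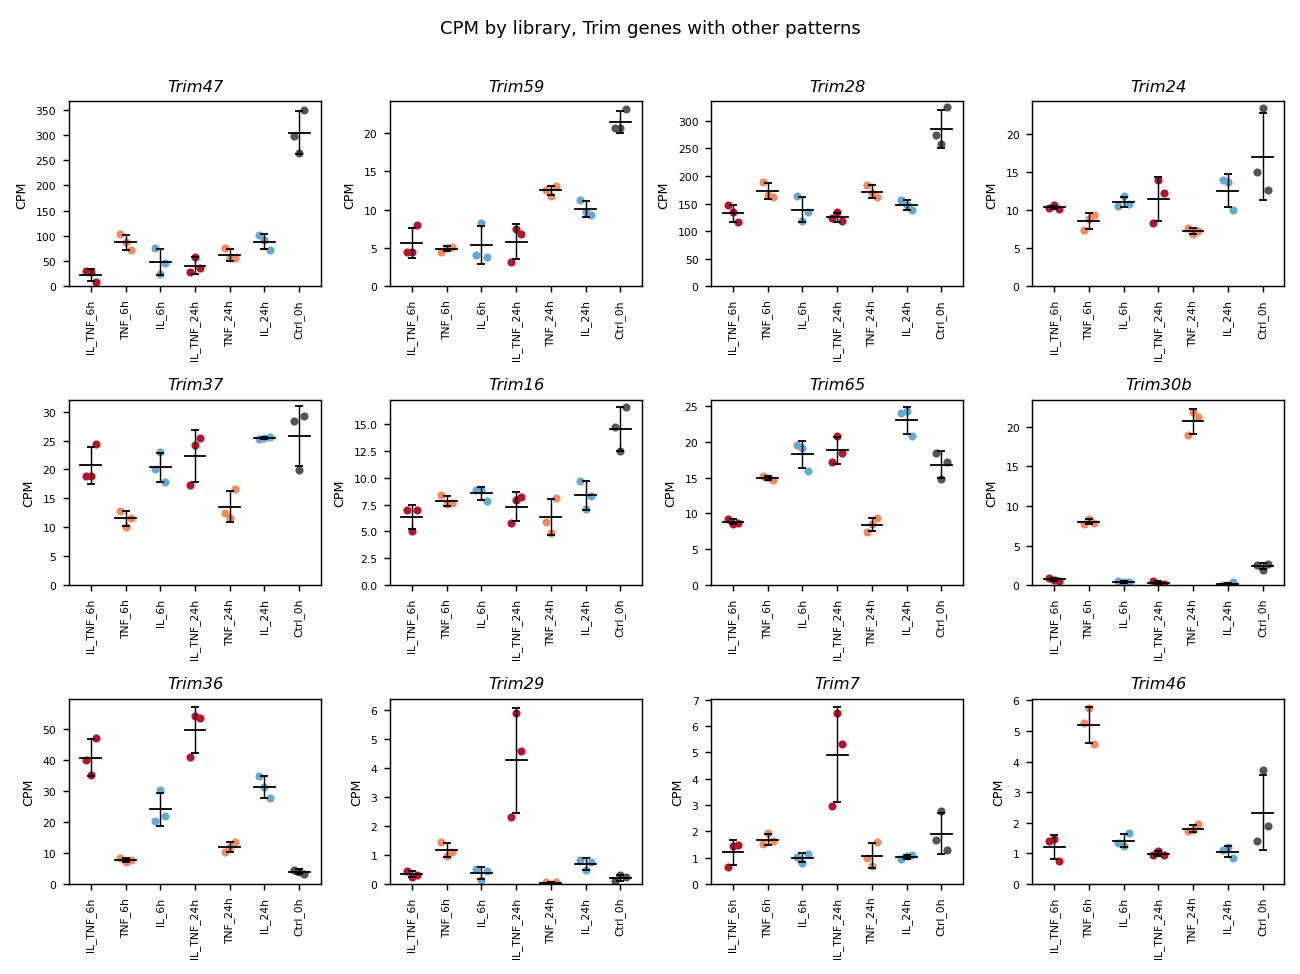
CPM in each library (points) with the mean (line) and SD (bars, n = 3) of 7 groups, for 12 Trim genes with other patterns. Trim47 and Trim28 are highest in Ctrl_0h, Trim36 is highest in the IL_TNF groups, and Trim29 and Trim7 in IL_TNF_24h.

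IL alone, in comparisons that cross library sets, raised 17 members and lowered 12 at 6 h, against 32.8% and 31.6% of all genes (64.5% either way), and raised 17 and lowered 10 at 24 h, against 31.7% and 32.6% (64.3% either way). These shares are near the background. Scaled by library totals alone, 20 members were raised and 9 lowered at 6 h, where the median log2 fold change of all genes was 0.149. Trim36 had the largest rise. Trim36 had 20.3, 30.2 and 21.9 CPM in IL_6h and 34.8, 31.4 and 27.7 CPM in IL_24h, against 4.65, 3.99 and 3.10 CPM in Ctrl_0h. The groups were far apart, with 2.62 ± 0.19 and 2.99 ± 0.19 on the log2 scale (adjusted p = 1.28e-09 and 3.39e-10). Trim44 rose by 1.40 ± 0.13 and 1.19 ± 0.12, Trim2 by 1.47 ± 0.26 and 1.41 ± 0.26, Trim14 by 1.39 ± 0.28 and 1.59 ± 0.28, and Trim25 by 1.06 ± 0.16 and 1.17 ± 0.16. Trim23, which joins a ligase with an ARF GTPase domain, rose by 1.16 ± 0.23 and 0.78 ± 0.23.

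Among members lowered by IL at 24 h, Trim30b had the largest change, while at 6 h Trim47 had a lower value than Trim30b. Trim30b had 0.486, 0.389 and 0.345 CPM in IL_6h and 0.0195, 0.0703 and 0.349 CPM in IL_24h, against 2.59, 1.96 and 2.71 CPM in Ctrl_0h. No IL library reached the untreated level, with -2.56 ± 0.45 and -3.99 ± 0.50 (adjusted p = 5.78e-05 and 1.33e-06), and without IL_24h replicate 3 the 24 h value was -5.71. Trim47 fell by 2.65 ± 0.39 and 1.78 ± 0.38, Trim59 by 1.98 ± 0.29 and 1.08 ± 0.28, and Trim12a by 1.38 ± 0.15 and 0.69 ± 0.14 on the log2 scale. Trim45 fell by 1.09 ± 0.22 and 1.39 ± 0.22, Trim28 by 1.04 ± 0.13 and 0.95 ± 0.13, and Trim27 by 1.02 ± 0.12 and 0.91 ± 0.12. TNF alone raised Trim30b and Trim12a and IL alone lowered them, while both lowered Trim47, Trim59 and Trim28, where the comparisons share the Ctrl_0h libraries.

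Set against TNF alone, the combination raised 10 members and lowered 15 at 6 h, against 29.7% and 27.5% of all genes (57.1% either way), and raised 14 and lowered 18 at 24 h, against 29.2% and 27.1% (56.3% either way). Scaled by library totals alone, 13 members were raised and 11 lowered at 6 h, and 15 raised and 14 lowered at 24 h. The medians of all genes were then 0.321 at 6 h and 0.24 at 24 h. The comparison crosses library sets. At 24 h Trim30b was lower in the combination by 6.27 ± 0.49, Trim30c by 2.97 ± 0.58 and Trim21 by 2.12 ± 0.18 on the log2 scale. Trim30b had -7.16, Trim30c -4.94 and Trim30d -2.32 without IL_TNF_24h replicate 1, against -1.499 ± 0.35 for Trim30d with it. Trim29 was higher by 6.52 ± 0.69, Trim7 by 2.19 ± 0.39, Trim2 by 2.08 ± 0.27 and Trim36 by 2.06 ± 0.18. Against Ctrl_0h, the combination raised 22 and lowered 12 members at 6 h, and raised 21 and lowered 10 at 24 h, beside 33.8% and 33.4% of all genes at 6 h (67.2% either way) and 33% and 32.3% at 24 h (65.3% either way).

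Genes that act with TRIM proteins were listed by function, and changes are on the log2 scale. The lists were chosen with earlier results of these data known, and examples are those of the largest change. Their counts therefore do not stand as a separate result. Of all genes tested, TNF alone raised 18.8% and lowered 20.5% at 6 h, and raised 20.9% and lowered 24.4% at 24 h. With IL present, TNF raised 7.09% and lowered 6.98% at 6 h, and raised 6.03% and lowered 5.08% at 24 h. Of 15 tested genes of cytosolic nucleic acid sensing, TNF alone raised 11 at 6 h and 13 at 24 h, and TNF with IL raised 10 at each time, with 0 lowered in any of the 4. In this list Zbp1, a sensor of Z-form nucleic acid, rose by 4.82 ± 0.46 and 4.75 ± 0.45 with TNF alone at 6 h and 24 h on the log2 scale. Of 10 genes of the type I interferon pathway, TNF alone raised 9 and 8, with 1 lowered at 24 h, and TNF with IL raised 4 at each time. Stat2, a subunit of the factor that binds the ISRE, rose by 2.96 ± 0.27 and 3.44 ± 0.27 with TNF alone. Ifnb1, the interferon beta gene and the member of this list with the largest fitted change, held 47 counts in TNF_6h, 90 in TNF_24h and 2 in Ctrl_0h, summed over 3 libraries.

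Of 18 genes for E2 enzymes and ubiquitin or ISG15 partners, TNF alone raised 9 and 12, and TNF with IL raised 5 at each time. Isg15, a ubiquitin-like modifier, rose by 4.14 ± 0.58 and 4.59 ± 0.59 with TNF alone. Of 12 genes of the TAK1 and IKK complexes, on which Trim8 and Trim30a act, TNF alone raised 6 and 9, with 1 lowered at 24 h, and TNF with IL raised 4 and 3. Birc3, a ubiquitin ligase of the TNF receptor complex, rose by 2.55 ± 0.15 and 3.17 ± 0.15 with TNF alone. Of 10 partners of KAP1, TNF alone raised 2 at each time and lowered 3 and 2, and Cbx5 and Cbx3, heterochromatin proteins that KAP1 binds, fell by 1.77 and 1.57 at 6 h. The KAP1 counts are near the shares of all genes given above for TNF alone. Of 4 tested genes with the same domain order under other symbols, TNF alone raised 3 at each time, among them Mefv, the gene of the inflammasome protein pyrin, by 4.09 ± 0.22 and 3.53 ± 0.22.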

How the data were processed

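RNA of 21 libraries was sequenced, 3 in each of 7 groups. The authors deposited raw counts per gene identifier. The build GRCm38 and the tools edgeR 3.28.1, Subread 1.6.3 with featureCounts, and TopHat2 2.0.12 are named in the submitters' processing notes. For strand and annotation, the sources used here give nothing. In the deposited counts the values 2 and 4 occur 30373 and 14538 times, and 1 and 3 occur 17808 and 9055 times, so both mates of a read pair may often have been counted.

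Counts of 47069 identifiers were used as deposited, 32832 of them with a symbol (2629 older symbols were replaced). R 4.3.3 and edgeR 4.0.16 (limma 3.58.1) fitted all 21 libraries by group, after a filter on low counts by group and TMM scaling, with the quasi-likelihood F test and Benjamini-Hochberg adjustment over 15581 genes. Calls needed an adjusted p below 0.05. CPM are over TMM-scaled totals, SD is over 3 libraries, and the ± of a log2 fold change is its standard error. The fit was tested on simulated data. The members and lists were chosen with earlier results of these data known.

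Values by library were given for members called in a comparison of TNF with its matched group with an absolute log2 fold change of at least 1 and libraries that did not overlap, or called in an interaction of at least 1, and for Trim28 in addition, chosen after its values were seen. List examples are those of the largest change. Alternatives were other scalings, DESeq2 1.42.0, other filters, the compared groups alone, libraries left out and a replicate block. The labels do not say whether replicate numbers pair the libraries, and the main fit used no pairing. In 0 of 21 pairs of groups did all same-numbered deviations correlate above 0.1 (range -0.31 to 0.363). This cannot decide on pairing, since deviations are from means of 3 libraries, in some of which a single library stood apart.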

Additional observations from a re-analysis of the deposited data

Results flagged for a closer look

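How far TNF moved each member in IL-treated cells was set against how far it did so without IL, and these members differed (adjusted p below 0.05, edgeR quasi-likelihood F test). At 6 h the difference on the log2 scale was -2.58 for Trim29, -1.82 for Trim34a, -1.67 for Trim30d, -1.46 for Trim14, -1.40 for Trim46, -0.93 for Trim25, -0.88 for Trim65, -0.68 for Trim13, -0.64 for Trim26 and -0.61 for Trim41. Differences above 0 at 6 h were 0.65 for Trim28, 0.90 for Trim24, 1.19 for Trim37 and 2.20 for Trim59. After 24 h the differences below 0 were -2.28 for Trim30b, -2.24 for Trim14, -2.24 for Trim21, -1.91 for Trim30d, -1.88 for Trim34a, -1.86 for Trim13, -1.62 for Trim25, -1.62 for Trim56, -1.59 for Trim26, -1.55 for Trim30a, -1.03 for Trim12c, -0.94 for Trim12a and -0.94 for Trim36. Those above 0 at 24 h were 0.50 for Trim28, 0.70 for Trim65, 0.74 for Trim37, 1.01 for Trim16, 1.11 for Trim24, 3.07 for Trim7 and 4.80 for Trim29. Each value sets 2 comparisons within library sets against each other, and no group was untreated at 6 h or 24 h, so the time in culture and the library set cannot be told apart from the effect of IL.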

How the results depend on the processing

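Of 304 calls of Trim genes in 13 comparisons, 215 held under every alternative run and 0 reversed. The calls lost were 4 with DESeq2 size factors, 26 with library totals alone and 0 with the DESeq2 test. They were 26 without a filter, 5 with a stricter filter and 37 of 302 with the compared groups alone. Without Ctrl_0h replicate 2, IL_TNF_24h replicate 1 and TNF_6h replicate 3, 33 of 295 were lost. Without IL_6h replicate 2 and IL_TNF_6h replicate 3, 13 of 111 were lost. That pair was left out for Col1a1, which reached 5.23 CPM in IL_6h and 4.08 CPM in IL_TNF_6h. Col1a1 was not confined to these groups and reached 3.11 CPM in Ctrl_0h. Fitting the compared groups alone gave 11 calls for IL_TNF_24h against IL_24h, in place of 7, where the cause was not tested. The share of all genes called in that fit is not given here. Library totals alone moved the median log2 fold change of all genes to -0.249 for TNF_6h against Ctrl_0h, in place of -0.04.

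With single libraries left out, the number of called members ranged from 26 to 32 for TNF_6h and 26 to 29 for TNF_24h against Ctrl_0h, 8 to 11 for IL_TNF_6h against IL_6h, 6 to 7 for IL_TNF_24h against IL_24h, 9 to 15 for TNF_24h against TNF_6h, 8 to 12 for the interaction at 6 h and 16 to 21 at 24 h. It ranged from 25 to 32 for IL_6h, 25 to 31 for IL_24h, 30 to 35 for IL_TNF_6h and 27 to 34 for IL_TNF_24h against Ctrl_0h, and from 21 to 23 and 28 to 31 for the combination against TNF alone at 6 h and 24 h.

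With the replicate number as a block, 7 of 304 calls were lost, and the counts were 31, 28, 9 and 7 for the 4 comparisons of TNF with its matched group. At TNF_24h against Ctrl_0h the count of 28 holds Trim6, which was gained, and not Trim5, which was lost. Correlations of same-numbered deviations ranged from -0.31 to 0.363, which does not decide whether the numbers pair the libraries. At 0.5 CPM and 2 CPM in place of 1 CPM, 52 and 43 members were kept, and 46 with library totals. Depth limits low members such as Trim29, Trim30b, Trim30c and Trim34b, whose fitted changes rest on few counts in some groups.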
